A study of Homo sapiens with 6 samples.

Results

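HuR, the RNA-binding protein encoded by ELAVL1, and 9 other proteins that bind AU-rich or related elements in mRNA were examined at the mRNA level after depletion of the long noncoding RNA GMDS-AS1. The 10 genes were chosen by symbol, as a list of stabilizing and decay-promoting binding proteins, and all 10 were found among the 60662 genes with a value. They are ELAVL1, YBX1, ZFP36, ZFP36L1, ZFP36L2, HNRNPD, KHSRP, CELF1, TIA1 and TIAL1. RNA was taken from HCT116 cells, an established human colorectal carcinoma line, in 2 groups of 3 libraries. The control cells were stably transduced by lentivirus with a nontarget shRNA (shCtrl, genotype WT in the labels), and the knockdown (KD) cells carried a single hairpin against GMDS-AS1, shRNA2 (genotype GMDS-AS1 knockdown). Both groups carried the lentiviral vector and grew in the same serum-containing medium with no further treatment, and a second hairpin or a rescue was not analysed here.

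AU-rich elements are stretches of adenine and uracil in the 3′ UTR of short-lived mRNAs, often built from the pentamer AUUUA. HuR binds them and protects the mRNA from decay, whereas the ZFP36 (tristetraprolin) family recruits the deadenylase complex that starts decay. HNRNPD (AUF1) and KHSRP (KSRP) mostly promote decay, TIA1 and TIAL1 (TIAR) silence translation, CELF1 acts on GU-rich elements, and YBX1 packages and stabilizes mRNA. In intestinal and colorectal cells these proteins are known for their control of cytokine, growth factor and cell cycle mRNAs. The values below are mRNA levels, and the proteins themselves were not measured in these libraries.

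Some of these mRNAs carry the very element that their proteins bind. In the GENCODE v29 annotation of GRCh38, the 3′ UTR of 1 transcript per gene was searched on the transcript strand for the pentamer ATTTA and for the nonamer TTATTTATT, which contains the pentamer. The nonamer was present in 4 of the 10 genes, once each in ELAVL1, ZFP36, ZFP36L1 and ZFP36L2, against 8.20% of the 12910 3′ UTRs of genes tested. Among 3′ UTRs of similar length (within 20%), the share was 22.8% for ELAVL1, 4.75% for ZFP36, 8.80% for ZFP36L1 and 8.85% for ZFP36L2. The pentamer was present in 8 of the 10, with KHSRP and YBX1 lacking it, against 67.9% of all 3′ UTRs. The windows of 30 bases shown here are those with the nonamer and the most pentamers, written as DNA from 5′ to 3′ with each pentamer in capitals, because HuR and ZFP36 proteins are known to bind such elements, including those in mRNAs of RNA-binding proteins. A match describes letters and is not evidence of binding.
ELAVL1, chr19:7961838-7961867, minus strand: tATTTAtacctATTTAtgtATTTATTTAtt
ZFP36, chr19:39409190-39409219, plus strand: tttATTTAtgacgactttATTTAttctaat
ZFP36L1, chr14:68788080-68788109, minus strand: aaaaaactgttggattATTTAttttagaaa
ZFP36L2, chr2:43223456-43223485, minus strand: aatatgaaaactATTTAacttATTTAttat
TIA1, chr2:70212582-70212611, minus strand: aatgtATTTATTTAaaagattcatttttaa
The ELAVL1 window held 4 pentamers and was the densest window of the set, but not its whole 3′ UTR. Per kilobase of 3′ UTR, ELAVL1 had 2.65 pentamers, against 7.01 in ZFP36, 4.28 in ZFP36L1, 3.97 in TIA1 and 2.61 in ZFP36L2. TIA1 is shown as the gene with overlapping pentamers but no nonamer.

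The number of pentamers followed the length of the 3′ UTR only in part. ELAVL1 had 13 in 4904 bases, where the median of 858 3′ UTRs of similar length (within 20%) was 11. TIA1 also had 13, in 3275 bases, against a median of 7. ZFP36 had 5 in 713 bases against a median of 1, and ZFP36L1 had 8 in 1871 bases against a median of 3. ZFP36L2 had 5 in 1917 bases and HNRNPD had 2 in 1687 bases, against medians of 4 and 3. TIAL1 and CELF1 had 1 each, in the short 3′ UTRs of 228 and 647 bases of the transcripts searched. These genes have 13 and 21 annotated transcripts, so the counts describe the chosen transcript and not the whole gene. Matches of 7 bases to the seed (bases 2 to 8) of the hairpin's antisense strand, GATGGTA, were found in 0 of the 10, against 6.59% of all. Matches to the seed of its sense strand, GTGGTCT, were found in 2, ELAVL1 and ZFP36, against 9.57% of all.

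Expression was given in TPM, a transcript level corrected for transcript length and library total, so that levels can be compared between genes. A gene was tested if 3 or more libraries reached 0.5 TPM, which held for 16901 genes, and all 10 binding proteins were past that level in each of the 6 libraries. TPM were scaled between libraries by a trimmed mean, and log2(TPM + 1) was compared between KD and shCtrl with limma and the Benjamini-Hochberg adjustment. The choice of scaling bears on every direction below, because the median log2 fold change of all genes tested was -0.20 on TPM as deposited, -0.07 after upper-quartile scaling and 0.00 after trimmed mean scaling. Changes are therefore given relative to the typical gene, and the value on TPM as deposited is given where it ends a call. Pearson's r of log2 values between libraries was 0.985 to 0.987 within groups and 0.956 to 0.957 between groups, and no library stood apart. Of 7 epithelial markers, 6 were past the floor, among them EPCAM and CDH1, and VIL1 was not. KRT8 and KRT18 fell by more than 2-fold in KD cells, and their part in the results below was not tested. Of 6 markers of other cell types, only COL1A1 was past the floor, at 10.04 to 14.42 TPM, and the leukocyte marker PTPRC was listed at 0 in all 6 libraries. GMDS-AS1 itself, listed as GMDS-DT on chromosome 6 from 2245748 to 2482022 on the plus strand, was at 1.66, 2.21 and 1.34 TPM in shCtrl and at 0.88, 0.91 and 0.79 TPM in KD libraries. Its log2 fold change was -0.41 ± 0.14 (SE; limma adjusted p = 0.0407), and with a pseudocount of 0.1 it was -0.68 (limma adjusted p = 0.0418).

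GMDS-AS1 depletion was accompanied by changes in most of the binding protein mRNAs, in both directions, as in most genes tested. Of the 10, 8 passed an adjusted p under 0.05 in limma, where 54.3% of all genes tested did. Of these 8, 6 were higher (ELAVL1, YBX1, ZFP36L2, HNRNPD, KHSRP and TIAL1) and 2 were lower (ZFP36 and ZFP36L1), while 28.5% of all genes were called higher and 25.9% lower. ZFP36L1 was the only one past 2-fold, where 7.17% of all genes were. On TPM as deposited, 3 were called higher (ELAVL1, YBX1 and ZFP36L2), 3 lower (ZFP36, ZFP36L1 and CELF1) and 4 neither way, against 16.3% of all genes called higher, 40.3% lower and 56.6% either way. The number called as deposited is thus near the share of all genes. The median log2 fold change of the 10 was 0.30, and 0.05 on TPM as deposited.

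**Figure D1:**
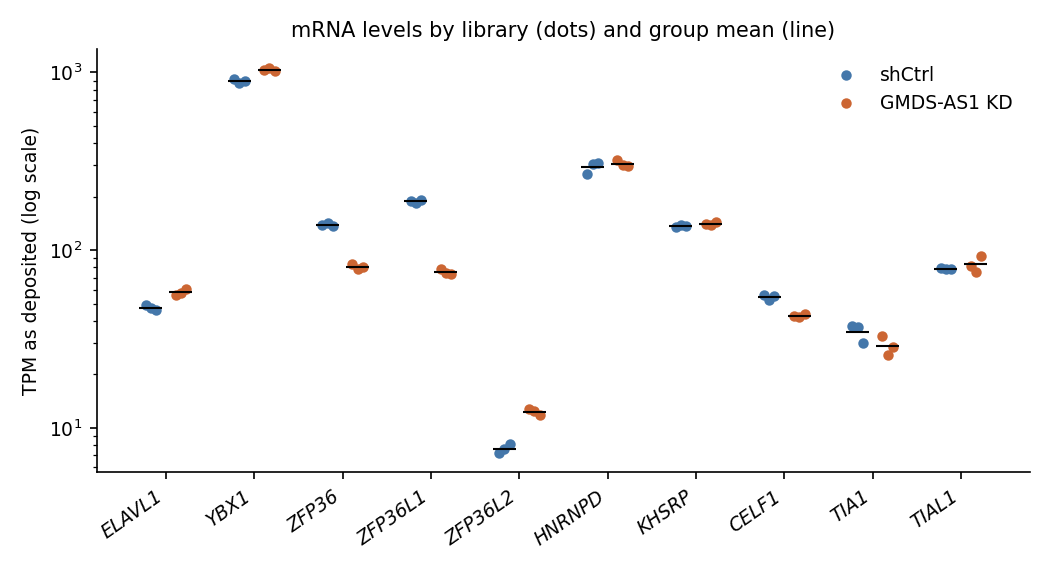
TPM as deposited of the 10 AU-rich element binding protein mRNAs on a log axis, with 1 dot per library and a line at the mean of the 3 libraries of each group (blue, shCtrl; orange, GMDS-AS1 KD). The KD dots of ZFP36, ZFP36L1 and CELF1 lie below and those of ELAVL1, YBX1 and ZFP36L2 above every shCtrl dot, while those of HNRNPD, KHSRP, TIA1 and TIAL1 overlap before scaling.

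ELAVL1 encodes HuR, the best known stabilizer of mRNAs with AU-rich elements. The gene (ENSG00000066044) lies on chromosome 19 from 7958579 to 8005659 on the minus strand. It overlaps the antisense gene AC010336.6 on the other strand, and whether the counting used strand is not known here. In shCtrl libraries ELAVL1 was at 49.08, 47.29 and 46.26 TPM. In KD libraries it was at 56.16, 57.31 and 60.79 TPM. Each KD library was above each shCtrl library, before and after scaling. The group means were 47.5 ± 1.43 and 58.1 ± 2.41 TPM (SD, n = 3 each), and the log2 fold change was 0.53 ± 0.040 (SE; 95% interval 0.43 to 0.62; limma adjusted p = 5.10e-05). As deposited, without scaling, it was 0.28, and ELAVL1 was still called higher (limma adjusted p = 0.00151). The change was of ordinary size, as 69.9% of the genes tested had a smaller absolute change. The HuR mRNA was thus not lower in KD cells under any scaling tried. The nearest profiles to that of ELAVL1 across the 6 libraries, among 10323 genes with at least 5 TPM on average, were those of NOSIP, TRIP6 and MTF1, with root mean square differences of 0.015, 0.019 and 0.019 on the log2 scale.

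YBX1 encodes the cold-shock domain protein YB-1, a general mRNA packaging and stabilizing factor, and had the highest level of the 10. Its levels were 916.22, 872.14 and 899.12 TPM in shCtrl and 1028.94, 1052.78 and 1014.14 TPM in KD libraries. The groups did not overlap, and the log2 fold change was 0.45 ± 0.033 (SE; limma adjusted p = 4.01e-05). On TPM as deposited it was 0.20 (limma adjusted p = 0.000667). YBX1 has 10 annotated pseudogenes, whose summed TPM was 0.46 to 1.49 in shCtrl and 0.39 to 1.62 in KD libraries, which is small beside the YBX1 level.

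The ZFP36 family showed the largest changes, and its members went opposite ways. These zinc finger proteins bind the UAUUUAU core of AU-rich elements and bring in the CCR4-NOT deadenylase. ZFP36, the founding member and an immediate early gene, was at 137.70, 142.72 and 136.08 TPM in shCtrl and at 83.13, 78.47 and 79.98 TPM in KD libraries. Every KD library was below every shCtrl library, with a log2 fold change of -0.53 ± 0.031 (SE; limma adjusted p = 1.57e-05). ZFP36L1, a broadly expressed paralog, was at 189.81, 184.11 and 190.48 TPM in shCtrl and at 78.08, 74.67 and 73.54 TPM in KD libraries. The mean fell from 188 ± 3.50 to 75.4 ± 2.36 TPM (SD, n = 3 each), and the log2 fold change was -1.06 ± 0.036 (SE; 95% interval -1.15 to -0.98; limma adjusted p = 1.89e-06). A smaller absolute change was found in 93.9% of the genes tested. ZFP36L2, the paralog with the lowest level here, was at 7.20, 7.56 and 8.06 TPM in shCtrl and at 12.70, 12.42 and 11.76 TPM in KD libraries. It rose with a log2 fold change of 0.85 ± 0.071 (SE; limma adjusted p = 8.11e-05). The falls of ZFP36 and ZFP36L1 and the rise of ZFP36L2 were called under each of the 3 scalings. The profiles nearest to that of ZFP36L1 were those of RNF215, AREG and PCTP, with differences of 0.028, 0.028 and 0.031 on the log2 scale.

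The ratio of HuR mRNA to ZFP36 family mRNA can be read within each library, where scaling between libraries has no part. Summed over the 3 paralogs as deposited, ZFP36 family mRNA was at 334.71, 334.39 and 334.62 TPM in shCtrl and at 173.91, 165.56 and 165.28 TPM in KD libraries. The sums do depend on scaling. As deposited, the KD means of ZFP36, ZFP36L1 and ZFP36L2 were 58.0%, 40.1% and 162% of those in shCtrl. After trimmed mean scaling they were 68.9%, 47.6% and 192%. The ratio of ELAVL1 to the family sum was 0.147, 0.141 and 0.138 in shCtrl and 0.323, 0.346 and 0.368 in KD libraries. The ranges did not overlap, and the log2 ratio rose from -2.82 ± 0.043 to -1.53 ± 0.094 (SD, n = 3 each), a difference of 1.28. With 3 against 3 libraries the ratio was not tested on its own. The make-up of the family also differed, since ZFP36L1 made up 56.2% ± 1.02 of the sum in shCtrl and 44.8% ± 0.309 in KD libraries, and ZFP36L2 made up 2.27% ± 0.129 and 7.31% ± 0.193 (SD, n = 3 each). ZFP36 itself went from 41.5% to 47.9% of the sum and became the leading paralog, in spite of its fall.

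**Figure D2:**
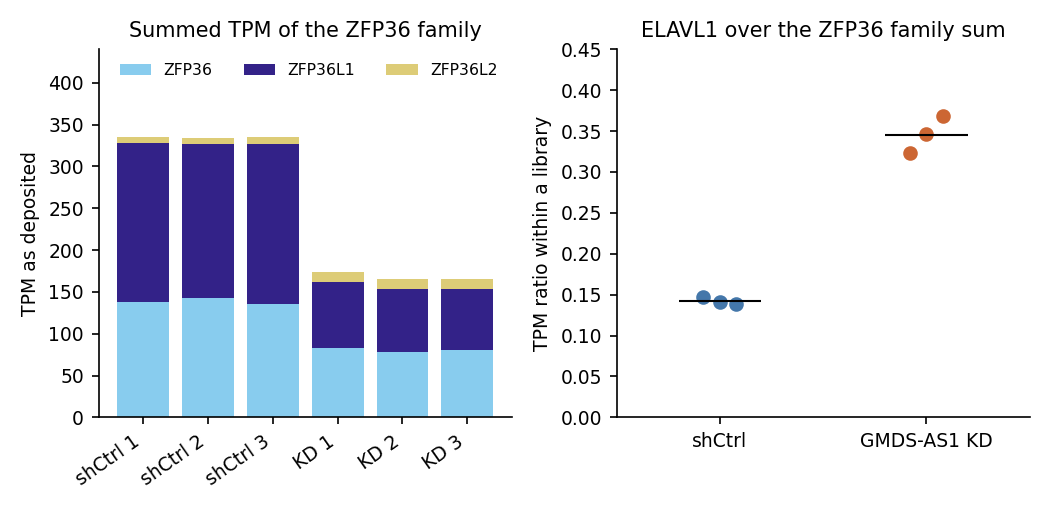
Left, summed TPM as deposited of ZFP36, ZFP36L1 and ZFP36L2 in each library as stacked bars. Right, the ratio of ELAVL1 TPM to that sum, with 1 dot per library and a line at the mean of 3. The KD libraries hold 165.28 to 173.91 TPM of family mRNA against 334.39 to 334.71 in shCtrl, and their ratios of 0.323 to 0.368 lie above the 0.138 to 0.147 of shCtrl. The sums depend on scaling between libraries and the ratios do not.

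HNRNPD and KHSRP, which mostly promote decay, changed little. HNRNPD (AUF1) was at 266.82, 304.27 and 307.79 TPM in shCtrl and at 323.14, 301.93 and 295.96 TPM in KD libraries, so the groups overlapped as deposited. Its log2 fold change was 0.32 ± 0.065 (SE; limma adjusted p = 0.00592), and on TPM as deposited it was 0.07 and not called (limma adjusted p = 0.375). KHSRP, a KH domain protein that also takes part in microRNA maturation, was at 135.11, 138.21 and 137.23 TPM in shCtrl and at 139.45, 137.92 and 144.32 TPM in KD libraries. Its log2 fold change was 0.28 ± 0.027 (SE; limma adjusted p = 0.000145), and on TPM as deposited it was 0.04 and not called (limma adjusted p = 0.306). Both genes therefore kept about the same share of all transcripts, and rose only relative to the typical gene. A KHSRP pseudogene was at 1.23 to 1.41 TPM in shCtrl and at 1.85 to 2.45 TPM in KD libraries. TPM per gene do not separate the protein isoforms of HNRNPD, which also overlaps the antisense gene AC124016.1 on the other strand.

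CELF1, which binds GU-rich elements and recruits the deadenylase PARN, was at 55.62, 52.56 and 55.19 TPM in shCtrl and at 42.74, 41.85 and 43.44 TPM in KD libraries. The groups did not overlap, but relative to the typical gene the log2 fold change was -0.10 ± 0.038 (SE) and did not pass (limma adjusted p = 0.0607). CELF1 was called lower on TPM as deposited, at -0.34 (limma adjusted p = 0.000319), after upper-quartile scaling, at -0.19 (limma adjusted p = 0.00516), and without shCtrl replicate 2, at -0.13 (limma adjusted p = 0.0289). The gene overlaps NDUFS3 and PTPMT1 on the other strand, and whether the counting used strand is not given in the sources used here.

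TIA1 and TIAL1 encode related proteins that silence translation and gather in stress granules. TIA1 was at 37.30, 36.76 and 29.83 TPM in shCtrl and at 33.03, 25.65 and 28.43 TPM in KD libraries. It had the widest spread within shCtrl of the 10, with a coefficient of variation of 12.0%, and the groups overlapped. Its log2 fold change was -0.01 (95% interval -0.27 to 0.25; limma adjusted p = 0.964). TIAL1 (TIAR) was at 79.77, 78.21 and 77.83 TPM in shCtrl and at 80.90, 75.70 and 92.73 TPM in KD libraries. KD replicate 3 was the highest and KD replicate 2 the lowest of the 6 as deposited. The log2 fold change was 0.32 ± 0.065 (SE; limma adjusted p = 0.00542), and on TPM as deposited it was 0.07 and not called (limma adjusted p = 0.407). TIA1 overlaps C2orf42 on the same strand, so that some reads could be assigned to either gene. The ratio of TIAL1 to TIA1 within a library was 2.13 to 2.61 in shCtrl and 2.45 to 3.26 in KD libraries, and these ranges overlapped.

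**Figure D3:**
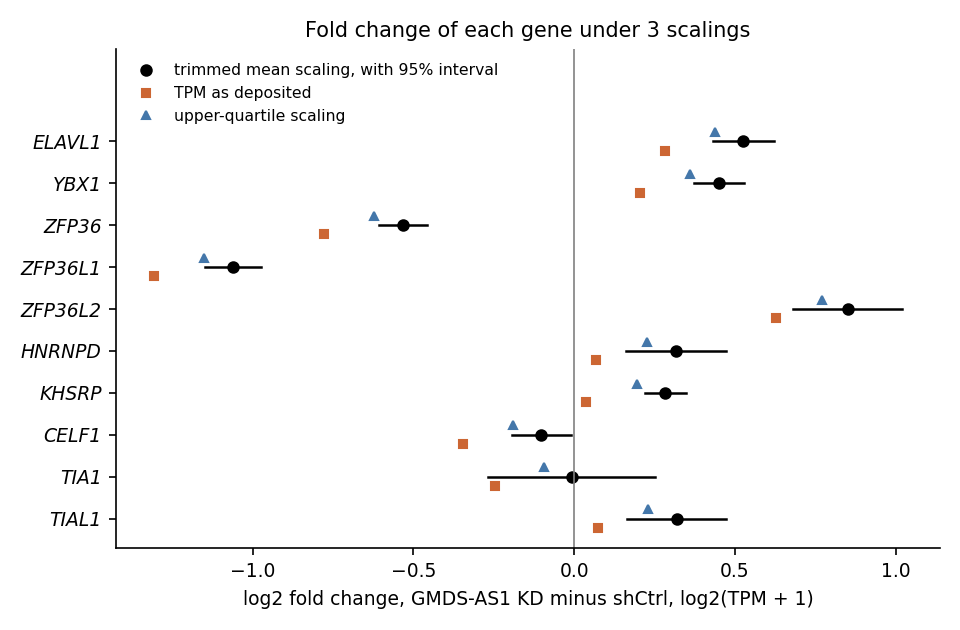
Log2 fold change of each gene, KD minus shCtrl, on the log2(TPM + 1) scale, after trimmed mean scaling (black dots, with the 95% interval from limma), on TPM as deposited (orange squares) and after upper-quartile scaling (blue triangles). ZFP36 and ZFP36L1 lie left of 0 and ELAVL1, YBX1 and ZFP36L2 right of 0 under all 3 scalings, while HNRNPD, KHSRP and TIAL1 move close to 0 on TPM as deposited.

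In level, YBX1 and HNRNPD stood first and second in both groups, and TIA1 and ZFP36L2 stood last. The order between them differed. In shCtrl libraries it was ZFP36L1, ZFP36, KHSRP, TIAL1, CELF1 and ELAVL1, and the ranges of ZFP36 and KHSRP overlapped. In KD libraries it was KHSRP, TIAL1, ZFP36, ZFP36L1, ELAVL1 and CELF1, and the ranges of TIAL1 and ZFP36 overlapped. All other neighbours in these orders had ranges that did not overlap. ZFP36L1 thus went from 3rd to 6th place, and ELAVL1 passed CELF1. On TPM as deposited, the summed level of the 10 was 1875 ± 12.0 TPM in shCtrl and 1861 ± 16.7 TPM in KD libraries (SD, n = 3 each), of which YBX1 made up 47.8% and 55.5%. This sum depends on scaling, and after trimmed mean scaling 6 of the 10 were called higher and 2 lower. After scaling, the groups did not overlap for 9 of the 10, TIA1 being the exception, and this held for 62.0% of all genes tested. As deposited, they did not overlap for 6 of the 10, against 63.7% of all genes. In bulk RNA, a lower level in each cell and fewer cells with the mRNA cannot be told apart.

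Among other proteins that bind AU-rich, GU-rich or stem-loop elements, 15 of 19 listed were tested. This list and those below were chosen with earlier results of these data known. After trimmed mean scaling 8 were called higher, 3 lower and 4 neither way, with a median log2 fold change of 0.18, where 28.5% of all genes were called higher and 25.9% lower. The deposited TPM gave 5 higher and 5 lower, where 16.3% of all genes were higher and 40.3% lower. The neuronal HuR paralogs ELAVL2 and ELAVL4 were listed at 0 in all libraries, ELAVL3 was at 0.19 TPM or less, and CELF2 at 0.03 TPM or less, so that HuR was the only member of its family above the floor. YBX3, the closest relative of YBX1 on the list, was at 306.29, 274.85 and 299.87 TPM in shCtrl and at 494.88, 488.61 and 501.26 TPM in KD libraries, with a log2 fold change of 1.00 ± 0.045 (SE; limma adjusted p = 5.18e-06), just under 2-fold. PABPC4, a poly(A) binding protein, rose by 0.76 on the log2 scale (limma adjusted p = 2.02e-06). The 3 that fell were ZC3H12A (Regnase-1) at -0.84 and RC3H2 (Roquin-2) at -0.41, which act on stem-loops, and HNRNPDL at -0.16.

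Known regulators of HuR included the largest rises of any list. Of 13 tested, 9 were called higher, 1 lower and 3 neither way, with a median log2 fold change of 0.26, against all-gene shares of 28.5% higher and 25.9% lower. On TPM as deposited 6 were higher and 3 lower, against shares of 16.3% and 40.3%. Past 2-fold were 4 genes, all of them higher, where 2.93% of all genes were higher past 2-fold and 4.24% lower. CARM1, the arginine methyltransferase that methylates HuR, was at 36.60, 37.07 and 34.68 TPM in shCtrl and at 93.71, 89.23 and 85.37 TPM in KD libraries (log2 fold change 1.53 ± 0.046, SE; limma adjusted p = 1.24e-06). MDM2, a ubiquitin ligase known to promote neddylation of HuR, was at 58.28, 53.36 and 50.53 TPM in shCtrl and at 128.39, 117.81 and 119.39 TPM in KD libraries (1.40 ± 0.056, SE). NEDD8, the modifier itself, rose by 1.11 and SET, a protein ligand of HuR, by 1.12 on the log2 scale. On TPM as deposited NEDD8 was at 0.86 and SET at 0.87, under 2-fold. CARM1 at 1.28 and MDM2 at 1.16 stayed past it, where 1.33% of all genes were higher past 2-fold. The 1 gene called lower after trimmed mean scaling was BTRC, which encodes the ubiquitin ligase subunit β-TrCP1. BTRC was at 14.81, 14.20 and 16.09 TPM in shCtrl and at 6.42, 7.41 and 8.99 TPM in KD libraries (-0.68 ± 0.12, SE; limma adjusted p = 0.00248), whereas its paralog FBXW11 (β-TrCP2) was higher by 0.72 on the log2 scale (limma adjusted p = 0.000188).

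Among 5 genes of the p38 pathway kinases and the phosphatase that act on ZFP36 proteins, 2 were called higher, 1 lower and 2 neither way, and on TPM as deposited 2 were higher and 2 lower. The share of all genes called lower was 25.9% and, as deposited, 40.3%, so 1 and 2 lower genes of 5 are near it. The share called higher was 28.5% and, as deposited, 16.3%. MAPK14, which encodes p38α, was at 20.90, 18.81 and 18.99 TPM in shCtrl and at 8.51, 8.70 and 9.30 TPM in KD libraries (log2 fold change -0.83 ± 0.063, SE; limma adjusted p = 5.04e-05). PPP2R1A, the scaffold subunit of protein phosphatase 2A, rose by 0.77 and MAPKAPK3 by 0.49 on the log2 scale. MAPKAPK2, the main kinase of ZFP36, had a log2 fold change of -0.08 and did not pass, but on TPM as deposited it was called lower at -0.31 (limma adjusted p = 0.0256).

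Of 18 genes of the deadenylation machinery that ZFP36 proteins recruit, 7 were called higher, 5 lower and 6 neither way (median log2 fold change 0.10), where 28.5% of all genes were higher and 25.9% lower. On TPM as deposited 2 were higher and 8 lower, where 16.3% and 40.3% of all genes were. These counts are near the shares over all genes. The 5 lower genes were the CCR4-NOT catalytic subunit CNOT6 at -1.18, the only one past 2-fold, its paralog CNOT6L at -0.63, CNOT8 at -0.72, the antiproliferative cofactor BTG1 at -0.92 and PAN3 at -0.33. CNOT6 was at 22.17, 21.71 and 21.72 TPM in shCtrl and at 7.96, 7.21 and 7.71 TPM in KD libraries (limma adjusted p = 5.56e-06). CNOT1, the scaffold to which ZFP36 binds, had a log2 fold change of 0.18 and did not pass (limma adjusted p = 0.0663). The largest rises were those of TOB2 at 0.61 and PAN2 at 0.42, and that of PAN2 was not called on TPM as deposited.

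Of 11 decapping and 5′ decay genes tested, 2 were called higher, 5 lower and 4 neither way, with a median log2 fold change of -0.22, where 28.5% of all genes were higher and 25.9% lower. The deposited TPM gave 0 higher and 6 lower, where 16.3% and 40.3% of all genes were. LSM1, of the ring that binds deadenylated mRNA, fell from 56.2 ± 4.62 to 23.4 ± 1.37 TPM (SD, n = 3 each; log2 fold change -0.99). The others that fell were DCP1A at -0.79, PATL1 at -0.55, EDC3 at -0.33 and DCP1B at -0.22. LSM14A at 0.40 and DDX6 at 0.32 were the 2 higher genes, and neither was called on TPM as deposited. The exoribonuclease XRN1 had a log2 fold change of 0.19 and did not pass (limma adjusted p = 0.283).

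Nearly all exosome and 3′ decay genes were called higher relative to the typical gene, but fewer than that on TPM as deposited. Of 15 tested, 14 were called higher and 1 lower, with a median log2 fold change of 0.40. Among all genes 28.5% were called higher and 25.9% lower. Without scaling, 7 were higher and 1 lower, where 16.3% and 40.3% of all genes were. EXOSC4, a ring subunit, was at 89.26, 89.18 and 89.98 TPM in shCtrl and at 151.14, 142.71 and 161.91 TPM in KD libraries (1.00 ± 0.042, SE; limma adjusted p = 3.85e-06). WDR61, of the SKI complex, rose by 0.86 and the cap subunit EXOSC3 by 0.67 on the log2 scale. EXOSC6 was at 1.40, 0.65 and 0.54 TPM in KD libraries and was listed at 0 in each of the 3 shCtrl libraries. Since EXOSC6 passed the floor only through the KD group, it is no sign of a change, though both counts of higher genes include it. Of the other 14 genes, 13 were called higher and 1 lower after trimmed mean scaling, with a median of 0.38. EXOSC8 was the exception that fell, by 0.43 on the log2 scale (limma adjusted p = 0.0126).

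**Figure D4:**
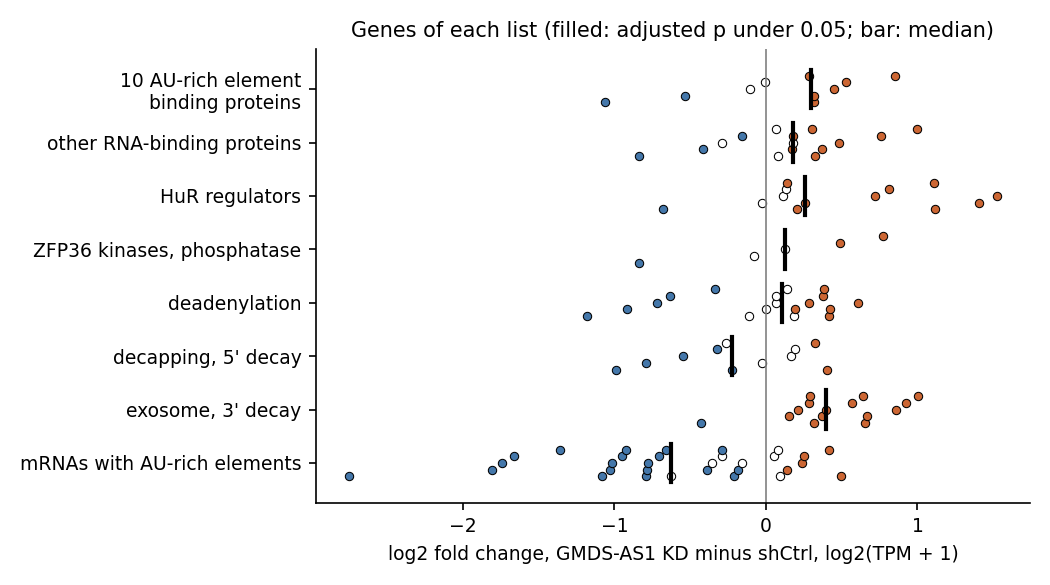
Log2 fold change, KD minus shCtrl, on the log2(TPM + 1) scale after trimmed mean scaling, with 1 dot per gene tested and a bar at the median of each list. Filled dots passed an adjusted p under 0.05 in limma (orange, higher; blue, lower). The exosome list has its median at 0.40 and the mRNAs with AU-rich elements theirs at -0.63, and on TPM as deposited the medians are 0.17 and -0.71. With only the genes past the floor in all 6 libraries, the medians after trimmed mean scaling are 0.38 and -0.34.

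The listed mRNAs known to hold AU-rich elements, on which HuR and the ZFP36 family act, were mostly lower. This list was chosen with earlier results of these data known, so its counts and median are only a description. Of 34 listed, 31 were tested, and 5 were called higher, 19 lower and 7 neither way, with a median log2 fold change of -0.63. Of all genes, 28.5% were called higher and 25.9% lower. On TPM as deposited 2 were higher and 24 lower, where 16.3% and 40.3% of all genes were. The 26 that passed the floor in all 6 libraries included 5 higher and 16 lower genes, with a median of -0.34. Of all genes, 4.24% were lower past 2-fold and 2.93% higher. On this list 8 genes were past 2-fold, and each of them was lower. They were PLAU (urokinase) at -2.75, the chemokine CXCL8 at -1.81, the kinase PIM1 at -1.74, the AP-1 subunits JUN at -1.66 and FOS at -1.36, the cytokine IL11 at -1.08, the early response gene IER3 at -1.03 and the EGFR ligand AREG at -1.01. CXCL8 was at 4.81, 3.16 and 4.50 TPM in shCtrl and at 0.35, 0.43 and 0.23 TPM in KD libraries, and it passed the floor only through shCtrl. Among the genes called higher were CCNB1 at 0.25, CDKN1B at 0.24 and CCND1 at 0.14, none of which was called on TPM as deposited.

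Falls on this list were seen in mRNAs with few motifs and with many. Of the 31 mRNAs, 29 had the pentamer and 14 the nonamer in the annotated 3′ UTR. PLAU, with the largest fall, had 2 pentamers and no nonamer in 932 bases. PIM1 had 5 pentamers and 3 nonamers in 1335 bases, IL11 had 9 and 6 in 1618 bases, and JUN had 3 and 0 in 1287 bases. HIF1A, with 8 pentamers and 2 nonamers, had a log2 fold change of 0.08 and did not pass (limma adjusted p = 0.0992), but on TPM as deposited it was called lower at -0.17 (limma adjusted p = 0.0101). STAT3, named after its values were seen because the study followed its mRNA, had 4 pentamers and no nonamer in 2421 bases, and was at 37.53, 41.32 and 36.43 TPM in shCtrl and at 19.34, 17.50 and 18.14 TPM in KD libraries (log2 fold change -0.79 ± 0.058, SE; limma adjusted p = 4.46e-05).

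Over all 12910 genes with a 3′ UTR, those with the nonamer were somewhat more often lower in KD cells. Of 11851 genes without it, 34.0% were called higher and 28.5% lower, with a median log2 fold change of 0.02. Of 820 genes with 1 nonamer, 26.6% were higher and 37.3% lower, and of 159 with 2, 19.5% were higher and 39.0% lower. The 80 genes with 3 or more did not extend the trend, with 23.8% higher and 36.3% lower. The median log2 fold change was -0.07, -0.14 and -0.14 in these classes. Without scaling, 19.7% of genes without the nonamer were higher and 44.4% lower, and the share lower was 53.9%, 57.9% and 53.8% with 1, 2 and 3 or more. The median 3′ UTR was also longer in them, at 2718, 3318 and 3815 bases, against 937 bases without the nonamer. Among 3′ UTRs of 1000 to 3000 bases alone, 31.8% of genes without the nonamer were lower, against 40.4%, 46.4% and 52.4% of those with 1, 2 and 3 or more, the last of which held 21 genes. As deposited, these shares were 48.4%, 56.5%, 58.9% and 66.7%. Genes are not independent replicates, so these shares are a description with no test, and the part of base composition was not tested. Among the 4 binding proteins with 1 nonamer, 2 were higher (ELAVL1 and ZFP36L2) and 2 lower (ZFP36 and ZFP36L1).

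**Figure D5:**
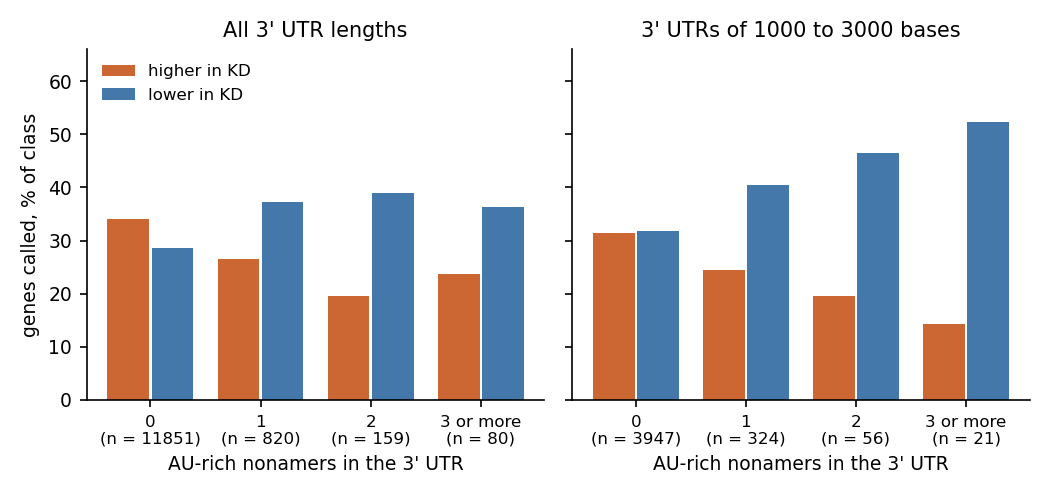
Share of genes called higher (orange) or lower (blue) in KD cells by limma at an adjusted p under 0.05, by the number of AU-rich nonamers in the annotated 3′ UTR, for all lengths (left) and for lengths of 1000 to 3000 bases (right), with the number of genes n under each class. In the right panel the share called lower goes from 31.8% without the nonamer to 52.4% with 3 or more, after trimmed mean scaling as plotted, and from 48.4% to 66.7% on TPM as deposited.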

How the data were processed

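Poly-A RNA of HCT116 cells was sequenced in 3 shCtrl and 3 GMDS-AS1 KD libraries. The authors deposited TPM per Ensembl gene and library, for which they name Cufflinks and RSEM, and they named DESeq2 for their own comparison. The submitters' processing notes also list Trimmomatic 0.27, TopHat2 2.1.1 and the build GRCh38.p13. TPM keep no read total, so the depth is unknown and no counting error was computed. Another 2 genes had no value and were left out.

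Trimmed mean factors were computed on TPM, unweighted, after trimming 30% of log ratios and 5% of mean levels at both ends. Because the values are TPM and not counts, limma 3.58.1 (R 4.3.3) was used, with a pseudocount of 1, a variance trend and no replicate block. The fit was checked on simulated data. Fold changes on log2(TPM + 1) understate those of low genes. The labels call the replicates biological and say nothing more, so p-values measure the spread between these libraries.

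The 3′ UTR was that of the principal isoform, then of the longest transcript. Motifs were counted with overlaps on the transcript strand.

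The binding proteins and lists were chosen with earlier results of these data known. Named were all 10 genes and, from each list, genes past 2-fold and the 2 largest rises and 2 largest falls at adjusted p under 0.05, the targeted gene and the 3 nearest profiles of ELAVL1 and ZFP36L1. Other genes were named after their values were seen, to complete a count or for their role. For some genes that the rule covers, no values are given here.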

Additional observations from a re-analysis of the deposited data

How the results depend on the processing

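The log2 fold change of ELAVL1 kept its direction and its call under all 13 alternatives tried, from 0.28 to 0.55 (limma adjusted p from 5.57e-05 to 0.00151). These were other scalings, a pseudocount of 0.1, no filter or a mean of at least 1 TPM, no variance trend, the replicate block and leaving out each library, where 1 library out gave 0.50 to 0.55. With the replicate block it stayed at 0.53 (limma adjusted p = 0.00112), and the block changed no call among the 10 genes, while GMDS-AS1 no longer passed (limma adjusted p = 0.0518). The share of all genes called was 51.1% with the block. The labels' replicate numbers did not pair the libraries, since the correlations of same-numbered libraries' deviations from their group means were 0.029, -0.038 and 0.014. The number of binding proteins called higher was 6 and became 3 on TPM as deposited, where HNRNPD, KHSRP and TIAL1 were not called. With 1 library left out, 8 to 9 of the 10 were called, the 9th being CELF1. TIA1, which was not called, ranged from -0.099 to 0.067 with 1 library left out and changed sign to 0.045 without shCtrl replicate 1, 0.033 without shCtrl replicate 2, 0.067 without KD replicate 2 and 0.011 without KD replicate 3. The difference of the log2 ratio of ELAVL1 to the ZFP36 family was 1.23 to 1.33 with 1 library left out. Genes with the nonamer had a median log2 fold change lower by 0.11 than genes without it, and also on TPM as deposited. With the pentamer in its place the difference was -0.13, not matched for length. The median 3′ UTR was 343 bases without the pentamer and 3336 bases with 6 or more. Among 3′ UTRs of 1000 to 3000 bases, the median log2 fold change was 0.02 without it and 0.02 with 1 to 2. In that length range it was -0.04 with 3 to 5 pentamers and -0.11 with 6 or more. TPM without depth limit what can be said of low genes such as GMDS-AS1 and EXOSC6.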
